A study of Homo sapiens with 6 samples.

Results

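The genes described here form the growth-control circuit that reads amino acids, energy and growth factors: the mTOR complexes, the Rag and GATOR proteins that bring amino acid signals to them, the kinase AMPK, and the PI3K-AKT-FOXO branch. They were chosen as a named list of 47 symbols, and all 47 were found among the 26228 rows of the table. All libraries came from AsPC-1, a long-established line of human pancreatic ductal tumour cells. A group of 3 libraries came from cells given vehicle and another 3 from cells given DON. That name is short for 6-diazo-5-oxo-L-norleucine, a compound that resembles glutamine and inactivates many enzymes that use it. Both groups were kept in medium lacking serum for 24 h, so the controls were deprived of serum growth factors as well. The dose of DON is not given in the sources used here, and nothing in the labels says that replicates were separate cultures, so the p-values below rest on library-to-library spread that may be technical.

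The kinase mTOR works in a pair of complexes. The first, mTORC1, holds the scaffold RPTOR, sits on the lysosome when amino acids are plentiful, and drives protein and lipid synthesis. The second, mTORC2, holds RICTOR and phosphorylates AKT. Rag GTPases, anchored by the Ragulator, recruit mTORC1 to the lysosome, GATOR1 switches the Rags off, and GATOR2 restrains GATOR1. The TSC complex switches off RHEB, which activates mTORC1 directly. AMPK senses low energy and restrains mTORC1, while AKT, activated by PI3K, relieves TSC inhibition and keeps FOXO transcription factors out of the nucleus.

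Levels are FPKM (fragments scaled by transcript length and by the mapped total of the library), which can be compared between genes of different length. Absolute depth is unknown because the table holds no counts. Of the members, 45 reached 1 FPKM in at least 3 libraries and were tested, on the log2(FPKM + 1) scale, with limma (Benjamini-Hochberg adjustment over all 11471 tested genes, threshold 0.05). Adding 1 makes the log2 fold changes of scarce genes too small. Called members numbered 8 higher and 10 lower in DON, 40.0% of those tested, and 38.9% of all tested genes were called. The shares over all tested genes were 18.3% higher and 20.6% lower. The share of all tested genes whose own values do not overlap between groups was not computed. With a correction for GC content, chosen after seeing the data, 9 members were called higher and 7 lower. The list as a whole was therefore called about as often as the table, and its median log2 fold change of -0.03 stood beside -0.01 over all tested genes. In bulk RNA, fewer cells expressing a gene and less of its RNA per cell cannot be told apart.

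Among the libraries, vehicle 3, DON 2 and DON 3 leaned one way in GC content of transcripts (Spearman correlations across genes of -0.40 to -0.42 between deviation from the group mean and GC), and vehicle 1, vehicle 2 and DON 1 the other way (0.23 to 0.50). Of 10 ductal epithelial markers, KRT8 and KRT18 carried a failure mark in vehicle 3, DON 2 and DON 3, and the other 8 were above 1 FPKM in every library (sum 3489 to 4088 in vehicle and 3109 to 4043 in DON). All 5 endothelial markers stayed below 1 FPKM (sum 0.0616 to 0.152 in vehicle and 0.0569 to 0.0678 in DON), with TEK at the floor of 0.01 in every library. Of 8 acinar and endocrine markers, 7 stayed below 1 FPKM in every library (sum over the list 0.127 to 1.28 in vehicle and 0.239 to 0.3004 in DON), with CPA1, AMY2A, INS and GCG at the floor. Of 8 fibroblast markers only LUM reached 1 FPKM (sum over the list 141 to 172 in vehicle and 88.8 to 124 in DON, THY1 at the floor). Of 7 leukocyte markers only LYZ and CD68 did (232 to 357 in vehicle and 102 to 153 in DON, CD3E at the floor). The part of these markers in the results was not tested.

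**Figure D1:**
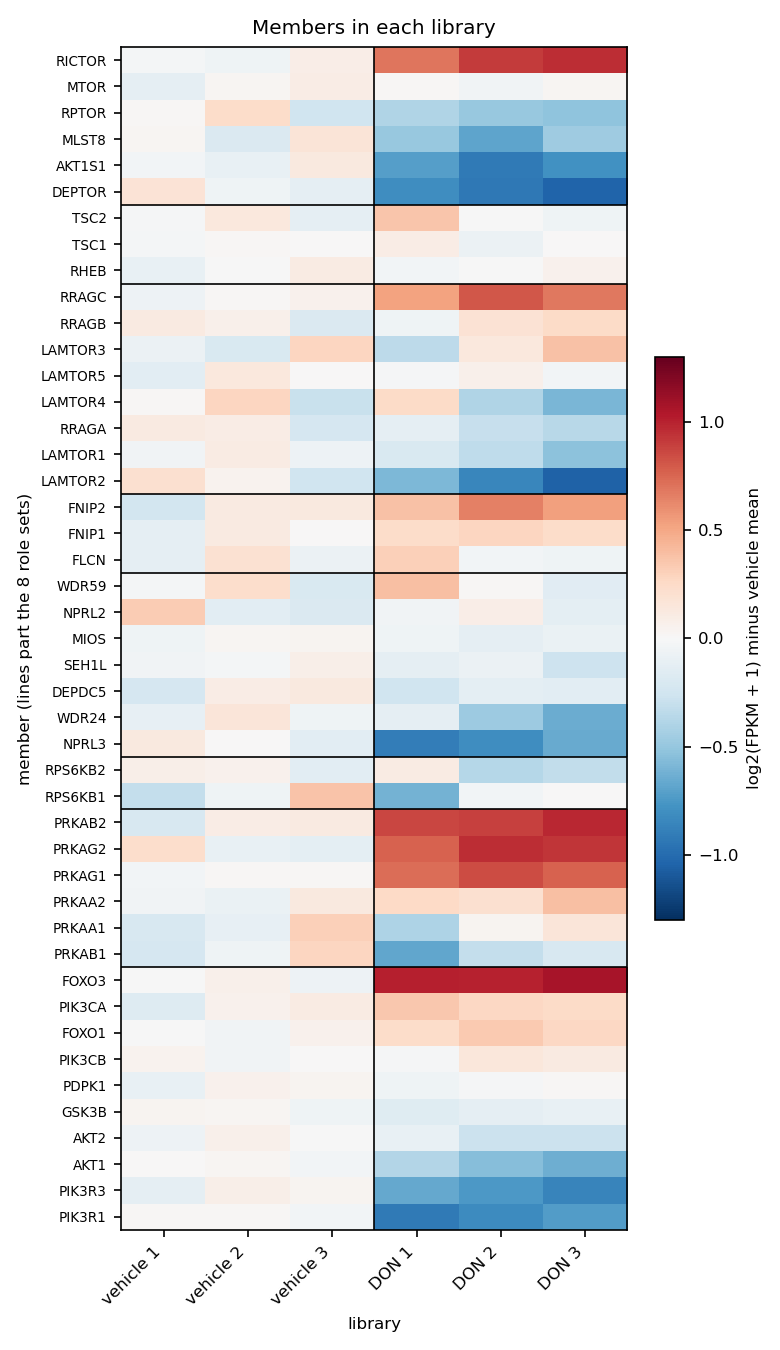
Each row is 1 of the 45 tested members and each column 1 library; the colour is log2(FPKM + 1) minus the mean of the 3 vehicle libraries, red above and blue below, and horizontal lines part the 8 role sets. FOXO3, RICTOR, RRAGC, PRKAB2, PRKAG1 and PRKAG2 are red in all 3 DON libraries, while DEPTOR, AKT1S1, LAMTOR2, NPRL3, PIK3R1 and PIK3R3 are blue in all 3.

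Within the set of 6 mTOR complex members, the called changes were in partner subunits and not in the kinase. Of 9 further mTOR complex partners tested from the other lists, 7 were not called. The share called was 22.2%, against 38.9% of all tested genes. MTOR read 5.55, 6.22 and 6.61 FPKM in vehicle and 6.18, 5.91 and 6.24 FPKM in DON, with overlapping groups (log2 fold change -0.00, 95% interval -0.23 to 0.23, limma adjusted p = 0.989). Of the other 5 members of this set, 1 rose and 4 fell, and the median of the set was -0.51. In all, 83.3% of the set was called, against 38.9% of all tested genes.

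RICTOR, the subunit that defines mTORC2, read 14.6, 14.2 and 15.8 FPKM in vehicle and 24.6, 28.8 and 29.9 FPKM in DON. All 3 DON libraries lay above all 3 vehicle libraries, a 1.87-fold rise (log2 fold change 0.86 ± 0.10 SE, limma adjusted p = 0.000958). RPTOR, which defines mTORC1 and presents its substrates, read 3.91, 4.73 and 3.05 FPKM in vehicle and 2.71, 2.44 and 2.37 FPKM in DON. Its groups did not overlap, but vehicle 3 came close to DON 1 (-0.47 ± 0.15 SE, limma adjusted p = 0.0411). The RPTOR call failed on leaving out vehicle 1, vehicle 2, DON 1, DON 2 or DON 3 (limma adjusted p of 0.0911, 0.117, 0.0538, 0.121 and 0.114). It was also lost with a correction for GC content, where the log2 fold change was -0.28 (adjusted p = 0.0971), with quantile normalization (0.0754) and without the filter on low values (0.160).

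The inhibitory subunits of the complexes fell. DEPTOR, which binds mTOR in both complexes and inhibits it, read 25.2, 21.2 and 20.4 FPKM in vehicle and 12.2, 11.2 and 10.3 FPKM in DON. Every DON library was far below every vehicle library, a 1.98-fold fall (log2 fold change -0.93 ± 0.11 SE, limma adjusted p = 0.00104). AKT1S1, also called PRAS40, an mTORC1 inhibitor that AKT phosphorylates, averaged 22.5 ± 1.88 FPKM in vehicle against 12.4 ± 0.926 FPKM in DON (SD, n = 3 per group), a 1.81-fold fall (-0.81 ± 0.10 SE, limma adjusted p = 0.00108). MLST8, a small subunit common to both complexes, read 45.1, 39.0 and 49.99 FPKM in vehicle and 31.3, 27.3 and 32.1 FPKM in DON (-0.55 ± 0.12 SE, limma adjusted p = 0.0105). Its groups did not overlap, yet after GC correction the change shrank to -0.24 on the log2 scale and the call was lost (adjusted p = 0.318), as it was without the filter on low values (0.0539).

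The upstream switch did not move detectably. TSC1, the scaffold of the TSC complex, averaged 5.47 ± 0.113 FPKM in vehicle against 5.51 ± 0.399 FPKM in DON (n = 3 per group), with a 95% interval of the log2 fold change from -0.21 to 0.23. RHEB, the GTPase that turns mTORC1 on, stood at 62.4 ± 4.46 and 62.6 ± 2.17 FPKM, with an interval from -0.19 to 0.21. TSC2, the subunit that inactivates RHEB, read 18.2, 20.5 and 16.9 FPKM in vehicle and 24.0, 18.4 and 17.8 FPKM in DON, and DON 1 alone stood above all others. Its log2 fold change of 0.10 had an interval from -0.22 to 0.42 (limma adjusted p = 0.577). With the GC correction it was 0.31 and passed as higher (adjusted p = 0.0212).

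Among the Rag GTPases, which act as dimers of RRAGA or RRAGB with RRAGC or RRAGD, only RRAGC was called. RRAGC read 21.0, 22.3 and 23.0 FPKM in vehicle and 32.2, 39.4 and 36.1 FPKM in DON. The groups were well apart, a 1.62-fold rise (log2 fold change 0.67 ± 0.10 SE, limma adjusted p = 0.00231). Its partner in the same position, RRAGD, was listed at 0.01, 0.0169 and 0.0555 FPKM in vehicle and 0.124, 0.160 and 0.195 FPKM in DON, below the filter and not tested, with vehicle 1 at the floor. RRAGC thus accounted for 99.46% or more of the FPKM of the pair in every library. RRAGA stood at 21.2 ± 2.79 and 17.5 ± 1.64 FPKM and RRAGB at 2.91 ± 0.429 and 3.27 ± 0.465 FPKM in vehicle and DON (n = 3 per group). Neither was called, at limma adjusted p of 0.133 and 0.490, though RRAGA passed as lower without vehicle 3 (0.0388). RRAGA and RRAGB are closely related and may share reads, which was not measured, so the division between them is uncertain.

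Of the 5 Ragulator subunits, which tether the Rags to the lysosome, 2 fell and 3 were not called. Rags and Ragulator together had 37.5% of tested members called, against 38.9% of all tested genes. LAMTOR2 read 137, 123 and 98.5 FPKM in vehicle and 78.4, 65.3 and 56.4 FPKM in DON. The groups did not overlap, a 1.79-fold fall (log2 fold change -0.83 ± 0.16 SE, limma adjusted p = 0.00732). The call was lost without the filter on low values (0.0585). LAMTOR1, the lipid-anchored subunit that holds the complex on the membrane, read 96.8, 108 and 95.6 FPKM in vehicle and 87.1, 79.2 and 68.9 FPKM in DON (-0.35 ± 0.11 SE, limma adjusted p = 0.0395). This call failed on leaving out any library except DON 1: vehicle 1, vehicle 2, vehicle 3, DON 2 or DON 3 gave adjusted p of 0.0809, 0.127, 0.0536, 0.108 and 0.118. It also failed with the GC correction (0.0584) and without the filter (0.124).

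LAMTOR5 averaged 101 ± 9.73 FPKM in vehicle against 101 ± 3.82 FPKM in DON (n = 3 per group), with an interval of the log2 fold change from -0.22 to 0.23. LAMTOR4 read 217, 261 and 176 FPKM in vehicle and 256, 164 and 142 FPKM in DON. Its vehicle 1, vehicle 2 and DON 1 values were all higher than those of vehicle 3, DON 2 and DON 3, the same division that GC content showed. LAMTOR3 showed the opposite order, with 10.5, 9.63 and 13.8 FPKM in vehicle and 8.62, 12.4 and 14.8 FPKM in DON. It was also the scarcest Ragulator mRNA, below 15 FPKM in every library, where the other 4 subunits were at 56.4 FPKM or more. Neither LAMTOR3 nor LAMTOR4 was called (limma adjusted p of 0.848 and 0.451).

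The folliculin complex activates RRAGC and RRAGD by promoting their GTP hydrolysis. FLCN, its core, stood at 8.57 ± 1.18 and 9.08 ± 1.46 FPKM in vehicle and DON (n = 3 per group, limma adjusted p = 0.707). Its partner FNIP2 read 1.36, 2.01 and 2.04 FPKM in vehicle and 2.64, 3.39 and 3.02 FPKM in DON, with no overlap (log2 fold change 0.52 ± 0.14 SE, limma adjusted p = 0.0272). The call was lost without vehicle 1 (0.0530), DON 2 (0.107) or DON 3 (0.0798) and without the filter (0.121). FNIP1, the more abundant partner, read 12.6, 15.03 and 13.8 FPKM in vehicle and 16.4, 17.0 and 16.4 FPKM in DON. Its groups did not overlap, but it missed the threshold (0.25 ± 0.09 SE, limma adjusted p = 0.0660), and it passed as higher in a fit with a term for the library division described above (0.0445).

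Of the GATOR subunits among the members, 1 of 7 tested was called, or 14.3% against 38.9% of all tested genes. SEC13, a GATOR2 subunit outside the members, was called higher and is given with the other pathway genes. NPRL3, a part of GATOR1, read 27.4, 24.9 and 22.6 FPKM in vehicle and 12.9, 13.8 and 15.4 FPKM in DON. Every DON library was below every vehicle library, a 1.78-fold fall (log2 fold change -0.79 ± 0.11 SE, limma adjusted p = 0.00165). Its GATOR1 partner NPRL2 stood at 8.81 ± 2.03 and 8.50 ± 0.726 FPKM in vehicle and DON (n = 3 per group) with an interval from -0.39 to 0.34. DEPDC5, the largest subunit of GATOR1, stood at 1.72 ± 0.343 and 1.402 ± 0.115 FPKM with an interval from -0.50 to 0.15.

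In GATOR2, WDR24 read 6.29, 7.74 and 6.54 FPKM in vehicle and 6.198, 4.64 and 4.02 FPKM in DON. The groups did not overlap but DON 1 lay next to vehicle 1 (log2 fold change -0.41 ± 0.15 SE, limma adjusted p = 0.0731), and WDR24 passed as lower without DON 1 (0.0164). With the GC correction its log2 fold change shrank to -0.13 (limma adjusted p = 0.388). WDR59, MIOS and SEH1L, the other GATOR2 subunits among the members, had limma adjusted p of 0.714, 0.410 and 0.215 and log2 fold changes of 0.09, -0.09 and -0.15. SESN3, a sestrin that binds GATOR2, was listed at 0.252, 0.173 and 0.126 FPKM in vehicle and 0.101, 0.0717 and 0.0947 FPKM in DON, below the filter and not tested.

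The S6 kinases, which carry the mTORC1 signal to translation, were not called. RPS6KB1 read 4.73, 5.84 and 8.22 FPKM in vehicle and 3.64, 5.97 and 6.16 FPKM in DON, with overlapping groups (limma adjusted p = 0.496). With the library division as a term it passed as lower, at a log2 fold change of -0.41 (adjusted p = 0.0132). RPS6KB2 stood at 32.1 ± 2.70 and 28.2 ± 5.58 FPKM in vehicle and DON (n = 3 per group, adjusted p = 0.324), and it passed as lower without DON 1 (0.0364). With the GC correction the log2 fold changes were -0.33 for RPS6KB1 (limma adjusted p = 0.189) and -0.04 for RPS6KB2 (0.767).

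**Figure D2:**
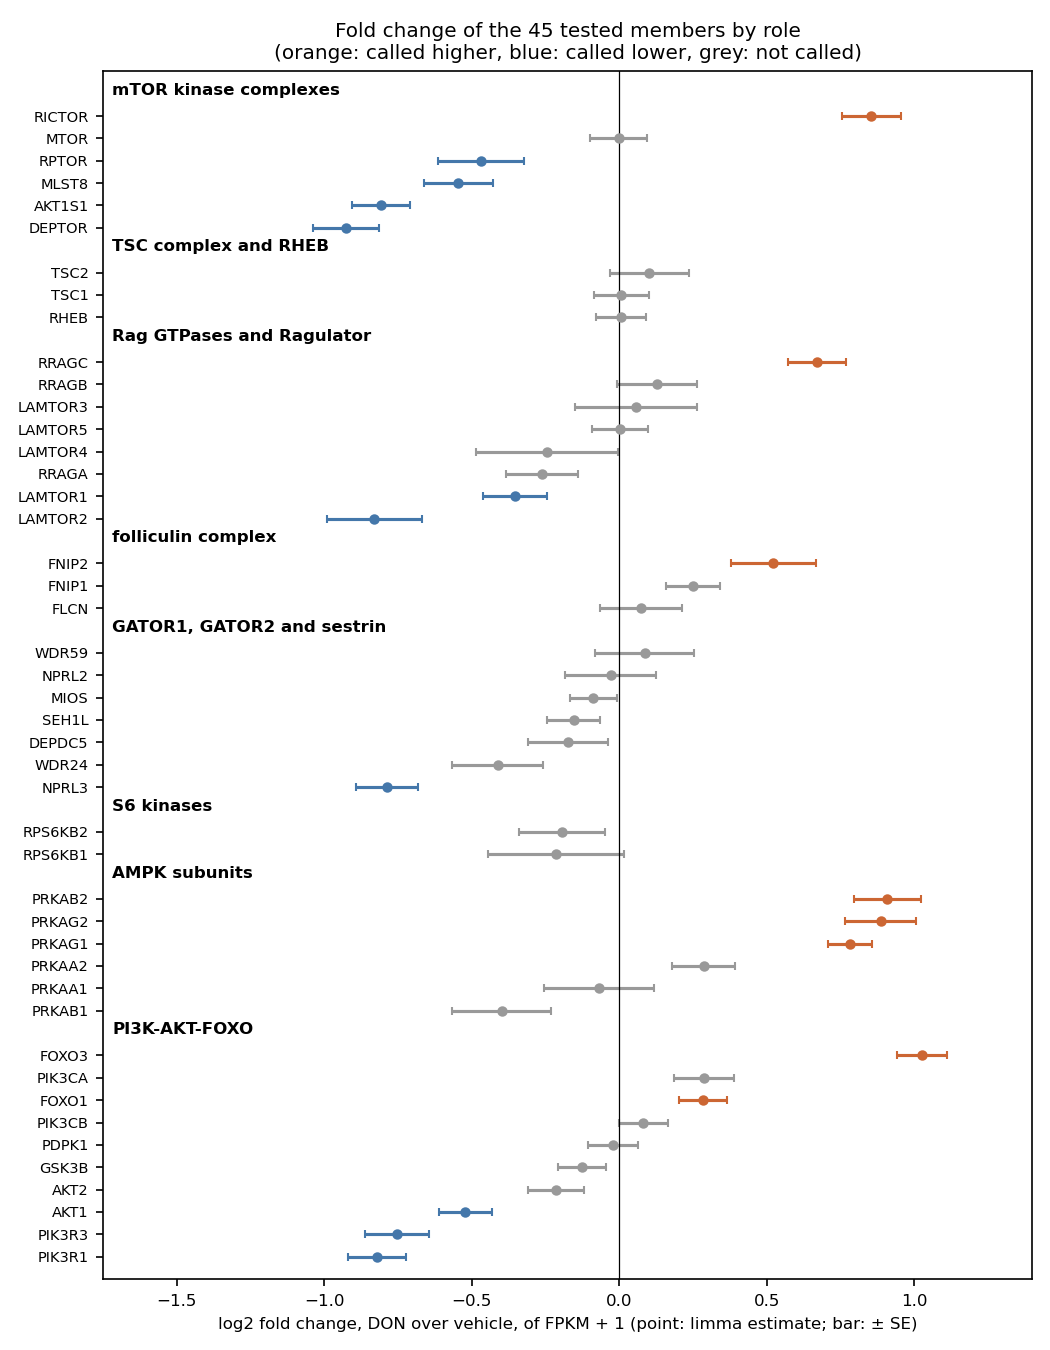
Points are limma log2 fold changes of FPKM + 1, DON over vehicle, and bars are ± 1 SE, for the 45 tested members grouped by role (3 libraries per group); orange marks members called higher, blue called lower and grey not called. RICTOR at 0.86 stands opposite DEPTOR at -0.93 within the mTOR set, the TSC set lies near 0, and 3 AMPK subunits lie between 0.78 and 0.91.

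AMPK is a trimer of a catalytic alpha, a scaffolding beta and a nucleotide-sensing gamma subunit, each encoded by several genes. In this set 3 of 6 subunits rose and 0 fell, where 18.3% of all tested genes were called higher and 20.6% lower. The median log2 fold change of the set was 0.53, and a difference of its share from that of all tested genes was not tested. The rises were in regulatory subunits. PRKAG1, the gamma 1 subunit, read 39.3, 40.8 and 40.8 FPKM in vehicle and 67.5, 73.1 and 69.5 FPKM in DON. The replicates lay close together and the groups far apart, a 1.74-fold rise (0.78 ± 0.08 SE, limma adjusted p = 0.000408). PRKAG2, the gamma 2 subunit, read 29.6, 23.3 and 22.8 FPKM in vehicle and 43.4, 49.7 and 48.8 FPKM in DON, a 1.87-fold rise without overlap (0.89 ± 0.12 SE, limma adjusted p = 0.00173).

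Of the beta subunits, which hold the trimer together, 1 was called. PRKAB2 read 6.00, 7.62 and 7.76 FPKM in vehicle and 13.7, 13.96 and 14.9 FPKM in DON, a 1.99-fold rise without overlap (0.91 ± 0.11 SE, limma adjusted p = 0.00115). PRKAB1 read 32.5, 36.3 and 46.0 FPKM in vehicle and 23.3, 30.3 and 32.7 FPKM in DON. DON 3 lay just above vehicle 1, and PRKAB1 was not called (log2 fold change -0.40 ± 0.17 SE, limma adjusted p = 0.103). It passed as lower with the library division as a term, where the log2 fold change was -0.54 (0.000827).

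The catalytic subunits were not called. PRKAA1, the main alpha mRNA in these cells, read 39.4, 42.4 and 56.6 FPKM in vehicle and 34.3, 46.8 and 50.8 FPKM in DON, with overlapping groups (95% interval of the log2 fold change -0.51 to 0.37, limma adjusted p = 0.796). With the library division as a term it passed as lower, at -0.23 (0.0217). PRKAA2 read 4.12, 4.01 and 4.81 FPKM in vehicle and 5.35, 5.14 and 5.93 FPKM in DON. Its groups did not overlap, but it missed the threshold (0.29 ± 0.11 SE, limma adjusted p = 0.0702) and passed as higher only with quantile normalization (0.0301) among the alternatives run.

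In the PI3K-AKT-FOXO branch 2 of 10 members rose and 3 fell, beside 18.3% called higher and 20.6% called lower among all tested genes. FOXO3, a transcription factor that AKT holds in the cytoplasm, had the largest rise of the 45 tested members. It read 6.56, 6.93 and 6.205 FPKM in vehicle and 14.2, 14.1 and 14.9 FPKM in DON. The groups were far apart compared with the spread inside them, a 2.19-fold rise (log2 fold change 1.03 ± 0.08 SE, limma adjusted p = 0.000233). FOXO1 read 9.63, 9.38 and 10.1 FPKM in vehicle and 11.6, 12.6 and 11.9 FPKM in DON, also without overlap (0.28 ± 0.08 SE, limma adjusted p = 0.0319). The FOXO1 call failed on leaving out vehicle 1 (0.0714), vehicle 2 (0.103), DON 2 (0.137) or DON 3 (0.0911).

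The regulatory subunits of PI3K, which stabilise the catalytic subunit and dock it on receptors, fell together. PIK3R1 read 5.74, 5.75 and 5.53 FPKM in vehicle and 2.53, 2.79 and 3.02 FPKM in DON, a 2.04-fold fall without overlap (-0.82 ± 0.10 SE, limma adjusted p = 0.000966). PIK3R3 read 4.73, 5.58 and 5.39 FPKM in vehicle and 2.92, 2.72 and 2.45 FPKM in DON (-0.75 ± 0.11 SE, limma adjusted p = 0.00206). Neither catalytic subunit was called. PIK3CA read 7.36, 8.76 and 9.05 FPKM in vehicle and 10.9, 10.3 and 10.1 FPKM in DON, just above vehicle in every library, but missed the threshold (0.29 ± 0.10 SE, limma adjusted p = 0.0630) and passed as higher with quantile normalization (0.0413). PIK3CB stood at 20.9 ± 0.701 and 22.2 ± 1.31 FPKM in vehicle and DON (n = 3 per group, interval -0.11 to 0.28).

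AKT1, the more abundant of the measured AKT kinases, read 43.8, 44.1 and 42.5 FPKM in vehicle and 33.1, 29.4 and 27.6 FPKM in DON. All DON libraries were below all vehicle libraries, a 1.45-fold fall (log2 fold change -0.52 ± 0.09 SE, limma adjusted p = 0.00458). After GC correction the change shrank to -0.27 on the log2 scale and the call held (limma adjusted p = 0.0281). AKT2 read 8.80, 9.78 and 9.24 FPKM in vehicle and 8.62, 7.48 and 7.48 FPKM in DON and was not called (-0.22 ± 0.10 SE, limma adjusted p = 0.116). PDPK1, the kinase that phosphorylates the activation loop of AKT, stood at 14.2 ± 0.864 and 13.9 ± 0.376 FPKM with an interval from -0.22 to 0.18 (n = 3 per group), and an expressed near-copy of this gene makes its value uncertain. GSK3B, a kinase that AKT inhibits, stood at 8.98 ± 0.353 and 8.14 ± 0.201 FPKM with an interval from -0.32 to 0.07.

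**Figure D3:**
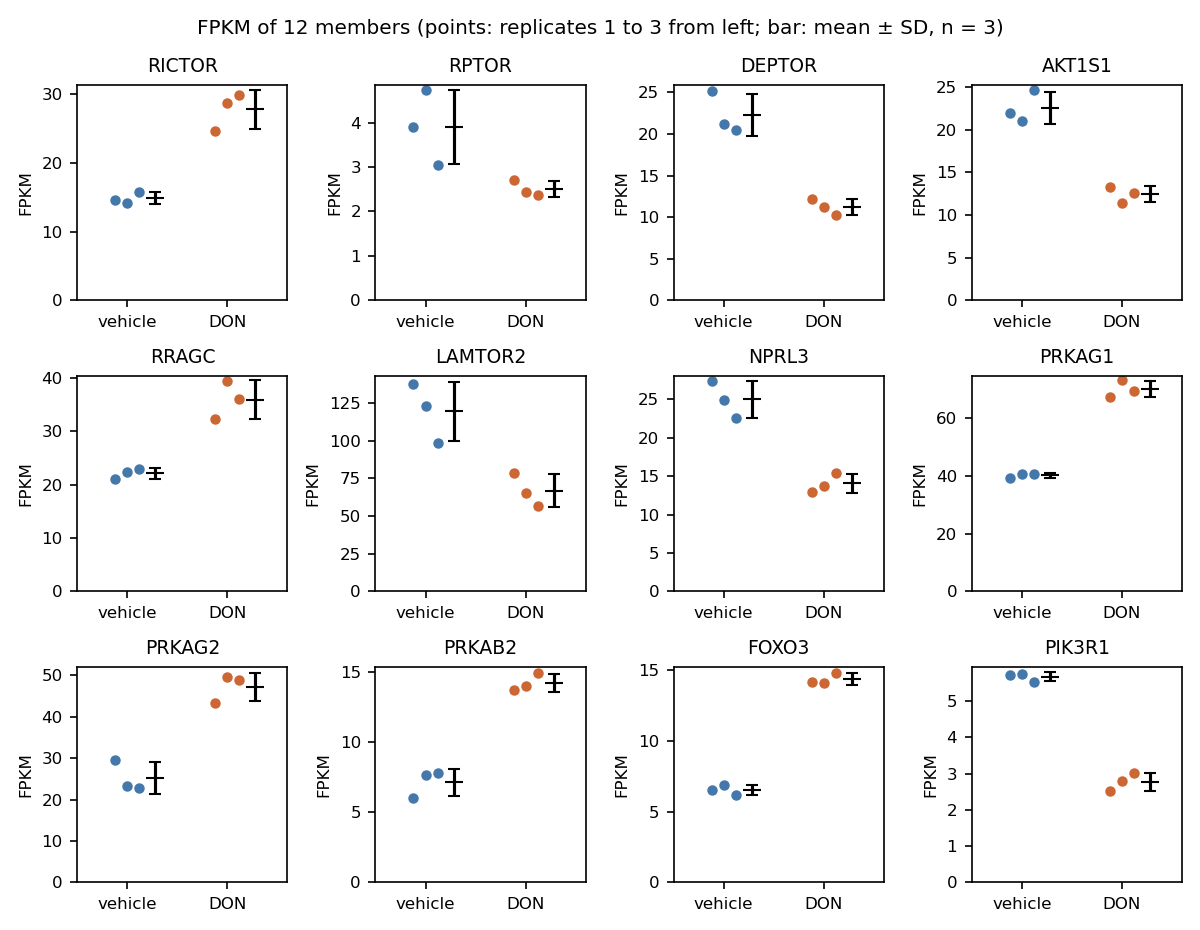
FPKM of 12 members in each library, vehicle in blue and DON in orange (replicates 1 to 3 from left to right), with the mean ± SD of n = 3 as a black bar; every vertical axis starts at 0. All 12 were picked from the called members, so the lack of overlap in each of them is no separate result. RPTOR shows the widest spread inside a group relative to the gap, with vehicle 3 at 3.05 beside DON 1 at 2.71 FPKM.

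Several members share exon bases with a gene on the opposite strand in GENCODE 29: AKT1S1 with TBC1D17, MLST8 with BRICD5, NPRL2 with CYB561D2, NPRL3 with MPG, PIK3CA with KCNMB3, and TSC2 with NTHL1 and PKD1. The library kit keeps strand, but whether the counting used it is not given in the sources used here, so reads of these partners may not be told apart. The shared part was 37.1% of the exon bases of PIK3CA, 23.4% for NPRL2, and 11.0% or less in each of the other cases.

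Members that stand in for each other or act side by side were compared as a ratio within each library, which removes scaling between libraries up to the pseudocount. It does not remove an effect of GC content that differs between the genes of a pair, and the ratios were not run with the GC correction. Of 14 pairs with both genes tested, the vehicle and DON ratios did not overlap in 10, or 71.4%. As background, the ratio of each tested gene to the next tested gene in the table did not overlap in 51.5% of cases. An exact two-sided permutation test of 3 libraries against 3 cannot go below p = 0.1, and all 10 had that value (Benjamini-Hochberg adjusted p = 0.14 over the 14 pairs), so none passed.

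The shifts of RPTOR against RICTOR and of PRKAB1 against PRKAB2 were of like size and larger than those of the other 12 pairs. RPTOR made up 21.2%, 24.9% and 16.2% of the summed RPTOR and RICTOR FPKM in vehicle and 9.91%, 7.82% and 7.35% in DON. The log2 ratio of RPTOR to RICTOR was thus lower in every DON library, by 1.32 on average (-1.71 ± 0.325 in vehicle and -3.03 ± 0.216 in DON, mean ± SD, n = 3 per group, exact permutation p = 0.1). PRKAB1 made up 84.4%, 82.6% and 85.6% of the AMPK beta mRNA in vehicle and 63.0%, 68.4% and 68.6% in DON. Its log2 ratio to PRKAB2 averaged 2.26 ± 0.156 in vehicle against 0.96 ± 0.201 in DON (SD, n = 3 per group), a difference of -1.31. PRKAB1 remained the larger share in all 6 libraries.

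FOXO1 exceeded FOXO3 in vehicle and FOXO3 exceeded FOXO1 in DON, in every library. The FOXO1 share of their sum was 59.5%, 57.5% and 61.9% in vehicle and 45.03%, 47.02% and 44.5% in DON. NPRL2 went the other way against NPRL3, from 25.9% ± 2.71 to 37.8% ± 3.53 of their sum (mean ± SD, n = 3 per group). The WDR24 share against WDR59 was 31.6% ± 2.01 in vehicle and 23.6% ± 0.383 in DON. In the gene fits with the GC correction, log2 fold changes were -0.13 for WDR24 and 0.08 for WDR59. By contrast, PRKAG1 against PRKAG2 and PIK3R1 against PIK3R3 had overlapping ratios. The PIK3R1 share was 52.0% ± 2.37 in vehicle and 50.8% ± 4.41 in DON, and the PRKAG1 share was 61.6% ± 3.97 and 59.7% ± 1.07.

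**Figure D4:**
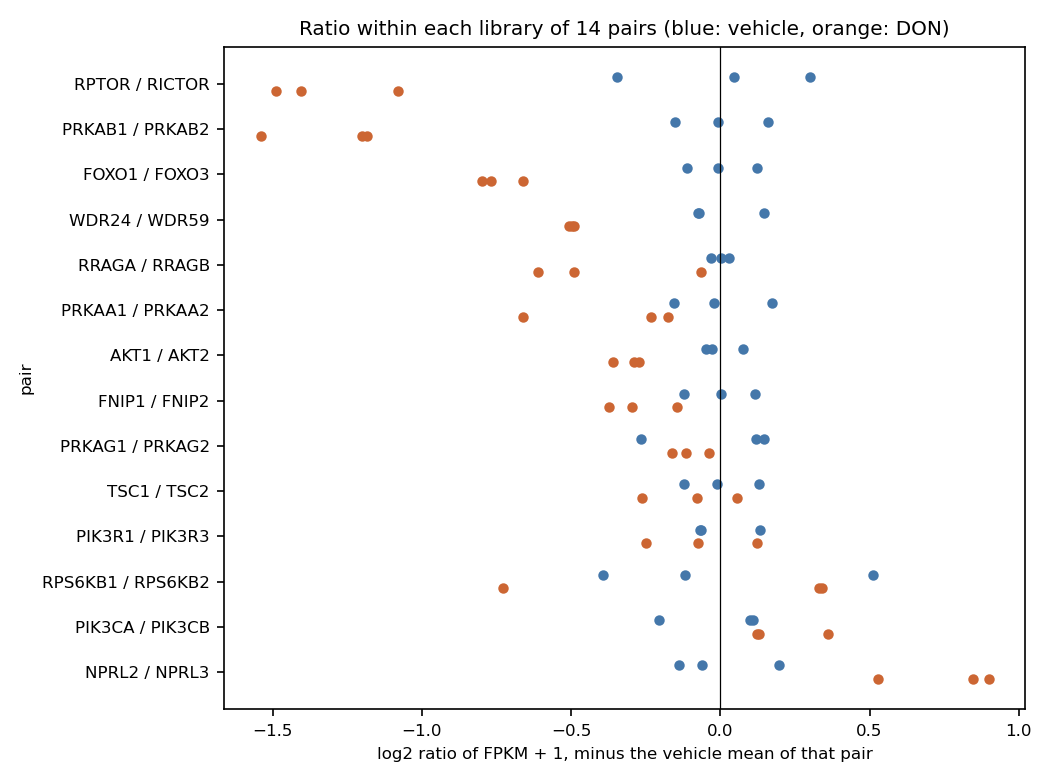
For 14 pairs of members, each point is the log2 ratio of FPKM + 1 in 1 library minus the vehicle mean of that pair, vehicle in blue and DON in orange (n = 3 per group). RPTOR against RICTOR and PRKAB1 against PRKAB2 lie furthest to the left in DON, NPRL2 against NPRL3 furthest to the right, and the DON points overlap vehicle for PRKAG1/PRKAG2, TSC1/TSC2, PIK3R1/PIK3R3 and RPS6KB1/RPS6KB2.

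Promoter sequences from RefSeq (GRCh38.p14, the 250 bases before each annotated start) were found for 41 of the 47 members, with 65 starts. The 6 without an entry, and so not searched, were MLST8, AKT1S1, RRAGA, RRAGD, DEPTOR and WDR24. They were searched on both strands for TCACGTGA, the element bound by the lysosomal regulators TFEB and TFE3, for TGATGNAAN, the C/EBP-ATF element of ATF4 target genes, and for GTAAACA, the FOXO element. The first was in 2 of the 65 windows and in 0.854% of 35116 windows of all genes. The second was in 2 windows against 3.13%, and the third in 1 window against 2.98%. The sites are shown because they are the matches found among the members, each read 5′ to 3′ with its place in GENCODE 29 genes, along the gene's strand with the motif in capitals. In TSC2 the first and second motifs overlap. The PIK3CA match is the FOXO element on the reverse strand.

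PIK3R1, chr5:68290599-68290627, plus strand, inside the gene and outside annotated exons, C/EBP-ATF element starting 55 bases before the start: ctggggcgtgTGATGTAATaggtttcagt
PIK3CA, chr3:179148198-179148224, plus strand, inside the gene and outside annotated exons, FOXO element starting 149 bases before the start: gttcgttgttTGTTTACacgatgtgag
TSC2, chr16:2047860-2047887, plus strand, in an exon of another TSC2 transcript and of NTHL1, first motif starting 115 bases before the start: tgcggccccgTCACGTGAtgcaaggatc
RRAGB, chrX:55717713-55717740, plus strand, in an exon of another RRAGB transcript, first motif starting 26 bases before the start: gtagcggcagTCACGTGAcagactccgg

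Of the 4 genes with a match, only PIK3R1 was called, as lower. FOXO3, RICTOR, RRAGC, PRKAB2, PRKAG1 and PRKAG2, which were called higher, had no match to these letters in the windows searched. A match is a description of the sequence and not a measured binding site.

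Other genes of the same pathways were taken from 7 lists of regulators, partners and targets. These lists were chosen with earlier results of these data known, so the shares called in them are descriptions and not tests. IRS2 and SESN1 stand in 2 lists each and are counted once in the total. Of 109 tested, 29 rose and 28 fell, or 52.3% against 38.9% of all tested genes (18.3% higher and 20.6% lower). Their median log2 fold change was -0.02, beside -0.01 over all tested genes. Among amino acid sensors and the KICSTOR and GATOR2 partners, 2 of 9 rose and 3 fell (median log2 fold change -0.19). That is 55.6% called, against 38.9% of all tested genes. SESN2, the leucine-binding sestrin and an ATF4 target, read 2.71, 2.15 and 2.19 FPKM in vehicle and 11.5, 8.58 and 8.79 FPKM in DON, a 4.09-fold rise (limma adjusted p = 0.000252). SEC13, shared by GATOR2 and vesicle coats, rose 1.47-fold (0.00336). CASTOR1, the arginine sensor, read 3.78, 2.03 and 2.77 FPKM in vehicle and 1.82, 1.31 and 1.07 FPKM in DON (0.0353), a call lost without vehicle 1 (0.0826), vehicle 3 (0.0647), DON 2 (0.104) or DON 3 (0.107). It was also lost with quantile normalization (0.0551), without the filter (0.171), and with the GC correction (0.104). SLC38A9, the lysosomal arginine sensor, stood at 6.01 ± 2.11 and 9.39 ± 1.95 FPKM in vehicle and DON (n = 3 per group, limma adjusted p = 0.0881), and it passed as higher without vehicle 3 (0.0243).

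Of mTORC1 inhibitors and effectors, 6 of 13 rose and 2 fell (median 0.33), or 61.5% against 38.9% of all tested genes. DDIT4, also called REDD1, which restrains mTORC1 through TSC, read 58.9, 65.1 and 47.3 FPKM in vehicle and 193, 159 and 151 FPKM in DON, a 2.94-fold rise. EIF4EBP1, the translation repressor that mTORC1 inactivates, rose 1.76-fold to 96.1 ± 6.15 FPKM (n = 3), and PDCD4, another translation repressor, rose 1.78-fold. ULK1, the kinase that starts autophagy and that mTORC1 inhibits, rose 1.79-fold. LPIN1, a phosphatidate phosphatase, fell 2.35-fold. Limma adjusted p for these 5 ranged from 0.000143 to 0.00301. TFEB, a lysosomal transcription factor, stood at 15.04 ± 2.71 and 18.2 ± 2.48 FPKM (n = 3 per group, limma adjusted p = 0.216, and 0.0462 as higher with the GC correction). The partners TELO2 and TTI1, of the chaperone that assembles mTOR complexes, were the called genes of their list. That list had 0 of 9 higher and 2 lower, or 22.2% called against 38.9% of all tested genes. TELO2 stood at 25.8 ± 5.73 and 13.5 ± 3.80 FPKM (limma adjusted p = 0.0195), lost without vehicle 1 (0.0668), vehicle 2 (0.0668), DON 2 (0.0717) or DON 3 (0.0587) and without the filter (0.123). TTI1 stood at 8.06 ± 0.902 and 6.07 ± 0.615 FPKM (limma adjusted p = 0.0485), a call that held on leaving out vehicle 2 and failed for each of the other 5 libraries (0.0758 to 0.127), with median-of-ratios scaling (0.0580), with quantile normalization (0.0820) and without the filter (0.133).

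Around AMPK, 3 of 17 tested kinases and substrates rose and 4 fell (median -0.25), or 41.2% against 38.9% of all tested genes. CAB39, the scaffold of the AMPK-activating kinase STK11, rose 1.54-fold to 97.0 ± 2.83 FPKM (SD, n = 3, limma adjusted p = 0.00164). STK11 itself read 46.3, 43.9 and 26.3 FPKM in vehicle and 40.6, 23.5 and 19.8 FPKM in DON, following the library division, and was not called (limma adjusted p = 0.248), though it passed as lower without DON 1 (0.0455). With the GC correction its log2 fold change was -0.14 (limma adjusted p = 0.587). The AMPK substrate ACACA, which makes malonyl-CoA, fell 3.84-fold (limma adjusted p = 8.52e-05).

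Of 24 tested PI3K isoforms, phosphatases, adaptors and AKT substrates, 5 rose and 11 fell (median -0.17), or 66.7% against 38.9% of all tested genes. INPP4B, a phosphatase that removes a phosphate from a PI3K lipid product, fell 2.13-fold. The AKT-related kinases SGK3 and SGK2 moved in opposite directions, SGK3 rising 2.15-fold to 18.6 ± 1.35 FPKM and SGK2 falling 2.09-fold to 5.86 ± 0.528 FPKM (n = 3). Limma adjusted p for INPP4B, SGK2 and SGK3 ranged from 0.000454 to 0.000817. IRS2, an insulin receptor adaptor, stood at 45.9 ± 3.62 and 42.6 ± 1.94 FPKM and was not called (limma adjusted p = 0.393).

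FOXO target genes and TFEB target genes were listed as outputs. Of 20 tested FOXO targets 10 rose and 5 fell (median 0.33), or 75.0% against 38.9% of all tested genes. FBXO32, a ubiquitin ligase subunit, rose 2.34-fold from 3.31 ± 0.3001 FPKM, and TXNIP, a regulator of glucose uptake, rose 1.91-fold to 258 ± 10.1 FPKM (n = 3). TNFSF10, the death ligand TRAIL, fell 3.13-fold from 5.29 ± 1.58 to 1.69 ± 0.368 FPKM (limma adjusted p = 0.00451). Of 19 tested lysosomal and autophagy targets of TFEB and its relatives 3 rose and 2 fell (median -0.02). That is 26.3% called, below the 38.9% of all tested genes. The rises named here are all in autophagy genes: WIPI1 read 2.37, 2.88 and 2.499 FPKM in vehicle and 13.6, 15.5 and 18.0 FPKM in DON, GABARAPL1 rose 3.33-fold and MAP1LC3B rose 1.79-fold. Limma adjusted p for these 3 was at most 0.00168.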

How the data were processed

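Poly(A) RNA of AsPC-1 cells was sequenced in 6 strand-keeping, single-end libraries, 3 per group, per the labels' protocols. The authors deposited FPKM values, 1 column per library, and the columns named control were taken as vehicle by their number. The submitters' processing notes name STAR and the build hg19. Not given in the sources used here are the program that computed FPKM, the annotation and the use of strand in counting. No value was below 0.01. In 41 rows 72 cells held a failure mark, and these rows were left out; no member was among them.

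Values were transformed to log2(FPKM + 1), and those reaching 1 FPKM in 3 or more libraries were tested with limma 3.58.1 in R 4.3.3 (moderated variances, intensity trend, no block, two-sided, adjusted over all tested genes). Fold values are ratios of group means. Ratios within pairs were tested by exact permutation (scipy 1.17.1). The fit was tested on simulated data. All 47 members are named; other genes follow a rule (10 fixed genes and up to 3 called genes per list by size of change with a mean of at least 5 FPKM). Some genes that the rule names are not reported here. Members, lists and the term for the library division were chosen with earlier results of these data known. The table held 211 of the 212 symbols listed, older symbols included. The library division parts vehicle 1, vehicle 2 and DON 1 from the other libraries. The alternatives were the pseudocount, the filter, scaling, the variance trend, a replicate block, the library division as a term, GC correction and leaving out each library. The GC correction subtracts a lowess curve of each library's deviation on transcript GC (GENCODE 29, 98.3% of tested genes with a value).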

Additional observations from a re-analysis of the deposited data

How the results depend on the processing

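Of the 18 called members, 12 kept their call under every alternative that tested them (RICTOR, AKT1S1, DEPTOR, RRAGC, NPRL3, PRKAB2, PRKAG1, PRKAG2, AKT1, PIK3R1, PIK3R3 and FOXO3), and 14 did so whichever library was left out. Without the filter on low values, 6 members were called lower in place of 10. The number of members called lower was otherwise 7 to 13, and that called higher was 6 to 10. Leaving out a library gave 16 to 23 other pathway genes called lower in place of 28, with 16 without DON 2 and 18 without vehicle 1. The number of pairs without overlap was 10 or 11. Same-numbered libraries did not all deviate together (correlations of 0.25, -0.18 and 0.50, and 3 of 6 libraries correlated best with their own number). With 3 libraries per group these values cannot decide whether the numbers pair them, and the main fit used no block. With a replicate block 8 members were called higher and 11 lower, the added one being PRKAB1 (limma adjusted p = 0.0116), and 10 pairs moved one way in all same-numbered differences. Of the other genes named, the block called SLC38A9 higher (0.00934) and STK11 lower (0.0310) by limma adjusted p, and lost TTI1 (0.0525).

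Across 670 member values under the alternatives, 596 kept direction and side of the threshold, 26 lost the call, 11 gained it and 37 changed sign. All 37 were of 12 members not called in either fit, and the cause was not tested. With the GC correction, chosen after seeing the data, the log2 fold change was 0.036 for MTOR, -0.012 for TSC1, -0.020 for RHEB, -0.065 for LAMTOR3, -0.031 for LAMTOR5, 0.089 for NPRL2, -0.030 for PIK3CB and 0.012 for PDPK1. With quantile normalization it was 0.065 for MTOR, -0.0032 for RHEB, -0.011 for LAMTOR5 and 0.0055 for NPRL2, and with median-of-ratios scaling 0.0076 for MTOR. With the library division as a term it was -0.030 for RHEB, -0.11 for LAMTOR3, -0.0033 for LAMTOR5 and 0.015 for NPRL2. Leaving out each library gave -0.062 to 0.047 for MTOR, -0.038 to 0.051 for TSC1, -0.027 to 0.18 for TSC2, -0.044 to 0.057 for RHEB, -0.10 to 0.26 for LAMTOR3, -0.067 to 0.071 for LAMTOR5 and -0.044 to 0.17 for FLCN. The same gave -0.13 to 0.13 for NPRL2, -0.064 to 0.20 for WDR59, -0.18 to 0.096 for PRKAA1 and -0.070 to 0.0057 for PDPK1. The shift of the RPS6KB1 to RPS6KB2 log2 ratio ranged from -0.22 to 0.34 and that of PIK3R1 to PIK3R3 from -0.16 to 0.025. With 3 libraries per group and no counts, small changes are not detectable, and bulk RNA gives no protein level or phosphorylation.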
